A study of Mus musculus with 11 samples.

Results

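Retinoic acid signalling in the mouse testis was described here through 9 genes: the enzymes Rdh10, Aldh1a1 and Aldh1a2, the cellular binding proteins Crabp1 and Crabp2, the receptors Rara, Rarb and Rarg, and the degrading enzyme Cyp26b1. The rule that chose them lists gene names and uses no measured value, and they are 9 of the 23074 genes in the count table. All 9 passed the filter on low counts and were among the 15745 genes tested. Reads were counted in decapsulated testes from 5 wild type and 6 Rfx2-/- mice, each a separate animal at postnatal day 21 (P21). Their background is taken as the same mix of C57BL/6, 129/Sv and FVB/N. The paper also describes a line backcrossed to C57BL/6 and does not say which line gave the sequenced testes. In Rfx2-/- mice exon 7 of Rfx2, which encodes much of the DNA binding domain of this transcription factor of the RFX family, was deleted between loxP sites by a Cre line active in all cells, so the deletion was not limited to germ cells. A whole testis holds germ cells and somatic cells together, so fewer cells of a type and less RNA per cell cannot be told apart in any value below.

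Retinol enters cells, is oxidised to retinaldehyde and then to retinoic acid, which binds nuclear receptors that pair with retinoid X receptors on target genes. Excess retinoic acid is removed by CYP26 enzymes. In the testis retinoic acid drives spermatogonia to differentiate and to enter meiosis, in part through Stra8, and both Sertoli cells and germ cells make and receive it.

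Total counts lay between 26925157 and 29769483 in wild type and between 22232097 and 27116903 in Rfx2-/- testis, and values are given as CPM, counts scaled to a common library size after TMM normalization in edgeR. A gene was called at an adjusted p of at most 0.01, which 305 genes passed with lower and 115 with higher values in Rfx2-/- testis. Rfx2 itself, counted over the whole gene, had 326 ± 118 CPM in wild type (SD, n = 5) and 304 ± 14.6 CPM in Rfx2-/- testis (SD, n = 6; adjusted p = 0.714 by edgeR's quasi-likelihood test), a count that does not show whether exon 7 is covered. Wild type replicates 3 and 5 stood apart from the other wild type mice, with summed CPM of 7 pachytene spermatocyte markers of 3340 and 3265. The others had 6292 to 7038, and Rfx2-/- mice had 6365 to 8160. The mean log2 CPM of these markers was 0.61 higher in Rfx2-/- testis (two-sided exact permutation p = 0.0130). Much of this difference came from wild type replicates 3 and 5, at 7.94 and 7.78. The other wild type mice had 8.88 to 9.03, close to or within the 8.97 to 9.28 of Rfx2-/- mice. For 10 Sertoli cell markers the mean log2 CPM was 0.30 lower in Rfx2-/- testis (p = 0.0216 from the same exact test). Their summed CPM were 3837 and 4281 in wild type replicates 3 and 5, from 2855 to 3471 in the rest of the wild type mice, and 2772 to 3236 in Rfx2-/- mice. None of the 10 Sertoli markers was called, although all 10 had log2 fold changes below 0, as 54.8% of tested genes did. At an unadjusted p of at most 0.05, 7 of the 10 were lower, against 23.7% of tested genes. At an adjusted p of at most 0.05, 2 were lower, against 8.78% of tested genes. These were Inha (log2 fold change -0.44, edgeR adjusted p = 0.0218) and Wt1 (-0.37, adjusted p = 0.0302), both without overlap of the genotypes.

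The 9 genes spanned a wide range of levels. Per kb of merged exons, which allows genes to be compared, Aldh1a1 stood at the top with 236 ± 23.1 CPM per kb (SD, n = 5) in wild type testis. Aldh1a2 followed with 87.4 ± 9.79, and every wild type mouse had more Aldh1a1 than Aldh1a2. Crabp1 with 23.8 ± 5.65 and Cyp26b1 with 22.8 ± 8.54 CPM per kb came next and did not differ beyond their spread. Rara had 11.1 ± 1.45 CPM per kb, the most of the 3 receptors. Rdh10 with 5.64 ± 1.498 and Rarg with 4.47 ± 1.155 again lay within each other's spread. Crabp2 with 0.933 ± 0.597 and Rarb with 0.129 ± 0.0376 CPM per kb were the lowest of the 9. The order of the means was the same in Rfx2-/- testis except that Cyp26b1, at 19.5 ± 3.43 CPM per kb (SD, n = 6), stood just above Crabp1 at 18.8 ± 2.68.

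**Figure D1:**
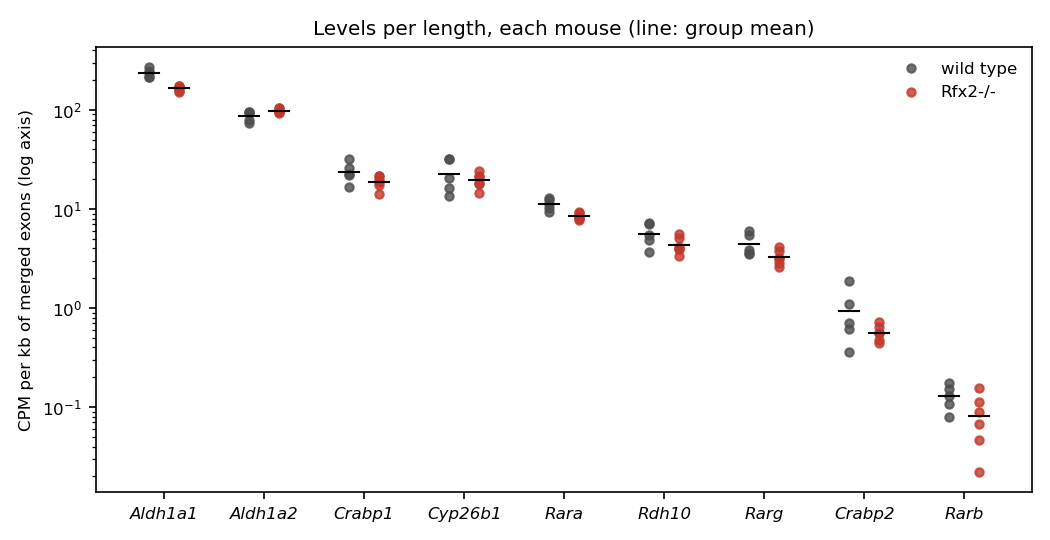
Level of each of the 9 genes in CPM per kb of merged exons (log axis), with 1 point per mouse and a line at the mean of each genotype (wild type dark, Rfx2-/- red). Wild type means run from 236 for Aldh1a1 down to 0.129 for Rarb, and the points of the genotypes are separate for Aldh1a1 and Rara.

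The clearest difference between the genotypes among the 9 genes was in Aldh1a1, the only one called. Of all tested genes, 2.67% were called in either direction, with 1.94% lower and 0.73% higher. In 2 of the 9, Aldh1a1 and Rara, all 6 Rfx2-/- mice lay under all 5 wild type mice, which was so for 5.2% of tested genes, while 6.5% were separate the other way. Fitted log2 fold changes of Rfx2-/- against wild type testis were below 0 for 8 of the 9 genes, against 54.8% of tested genes, and their median was -0.40, against -0.05 for all tested genes. At an unadjusted p of at most 0.05, 3 of the 9 were lower and 1 was higher, where the shares of all tested genes were 23.7% and 18.1%, or 41.8% in all. The genes share the same 11 libraries, so these counts do not add up independent observations. Many of the fold changes also depended on wild type replicates 3 and 5. Without them, a setting chosen after seeing the data, log2 fold changes were -0.41 for Aldh1a1, -0.27 for Rara and -0.14 for Rarg. They were -0.08 for Rdh10, -0.11 for Crabp1, -0.96 for Crabp2 and -0.44 for Rarb, and above 0 for Aldh1a2 (0.07) and Cyp26b1 (0.23). The median of all tested genes was then -0.01.

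Aldh1a1 (ENSMUSG00000053279, GRCm38 chromosome 19, from 20492715 to 20643465, plus strand) encodes a retinaldehyde dehydrogenase that makes retinoic acid and is known from Sertoli cells. Wild type replicates 1 to 5 had 534, 587, 616, 538 and 673 CPM. The 6 Rfx2-/- mice had between 381 and 437 CPM, with a median of 418. The highest Rfx2-/- mouse thus lay well under the lowest wild type mouse. Aldh1a1 fell from a mean of 589 ± 57.7 CPM (SD, n = 5) to 413 ± 23.2 CPM (SD, n = 6), and the fitted level in Rfx2-/- testis was 70.1% of wild type (log2 fold change -0.51, standard error (SE) 0.08, adjusted p = 0.00273 by the quasi-likelihood F test of edgeR after Benjamini-Hochberg adjustment). The call was narrowly lost without Rfx2-/- replicate 6 or 10 and with the Sertoli marker score as a covariate, each at an adjusted p of 0.0107 or 0.0106, but held without wild type replicates 3 and 5 (log2 fold change -0.41, adjusted p = 0.00347), an alternative chosen after seeing the data. Aldh1a7, a closely related paralog that lies in the same gene family and could share reads with Aldh1a1, had 23.6 ± 1.601 CPM in wild type (SD, n = 5) and 19.3 ± 1.36 CPM in Rfx2-/- testis (SD, n = 6; edgeR adjusted p = 0.0311).

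Aldh1a2 (ENSMUSG00000013584, chromosome 9, from 71215789 to 71296243, plus strand) catalyses the same step and is known from germ cells, mainly spermatocytes. It was the only one of the 9 genes with a log2 fold change above 0. Wild type replicates 1 to 5 had 209, 214, 168, 218 and 179.9 CPM, and Rfx2-/- mice had between 212 and 235 with a median of 221. Wild type replicates 3 and 5 were the lowest of the 11 mice, and the other wild type mice overlapped with Rfx2-/- mice or lay close to them. The log2 fold change, 0.17 (SE 0.08), did not pass the test (adjusted p = 0.113 by edgeR's quasi-likelihood test).

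The transcripts of these enzymes, which catalyse the same step, were also set against each other in each mouse. Per kb, Aldh1a2 made up 30.2%, 28.6%, 23.2%, 30.8% and 22.8% of the sum of Aldh1a1 and Aldh1a2 in wild type replicates 1 to 5. In Rfx2-/- mice the share ran from 34.9% to 40.5% with a median of 37.4%. The genotypes did not overlap in this share, which averaged 27.1% ± 3.87 (SD, n = 5) and 37.3% ± 2.20 (SD, n = 6) and is given as a description, since it restates the levels of both genes. Within wild type the share was lowest in replicates 3 and 5, the mice with the lowest pachytene marker sums.

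Rdh10 (ENSMUSG00000025921, chromosome 1, from 16105774 to 16133734, plus strand) encodes the retinol dehydrogenase of the preceding step, from retinol to retinaldehyde. Its levels were 13.2, 17.3, 26.0, 19.6 and 25.1 CPM over wild type replicates 1 to 5 and 11.9 to 20.2 CPM in Rfx2-/- mice, with a median of 14.6. Replicates 3 and 5 were the only wild type mice above the whole Rfx2-/- range. The log2 fold change was -0.37 (SE 0.19, edgeR adjusted p = 0.156), and it was -0.08 without those mice.

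**Figure D2:**
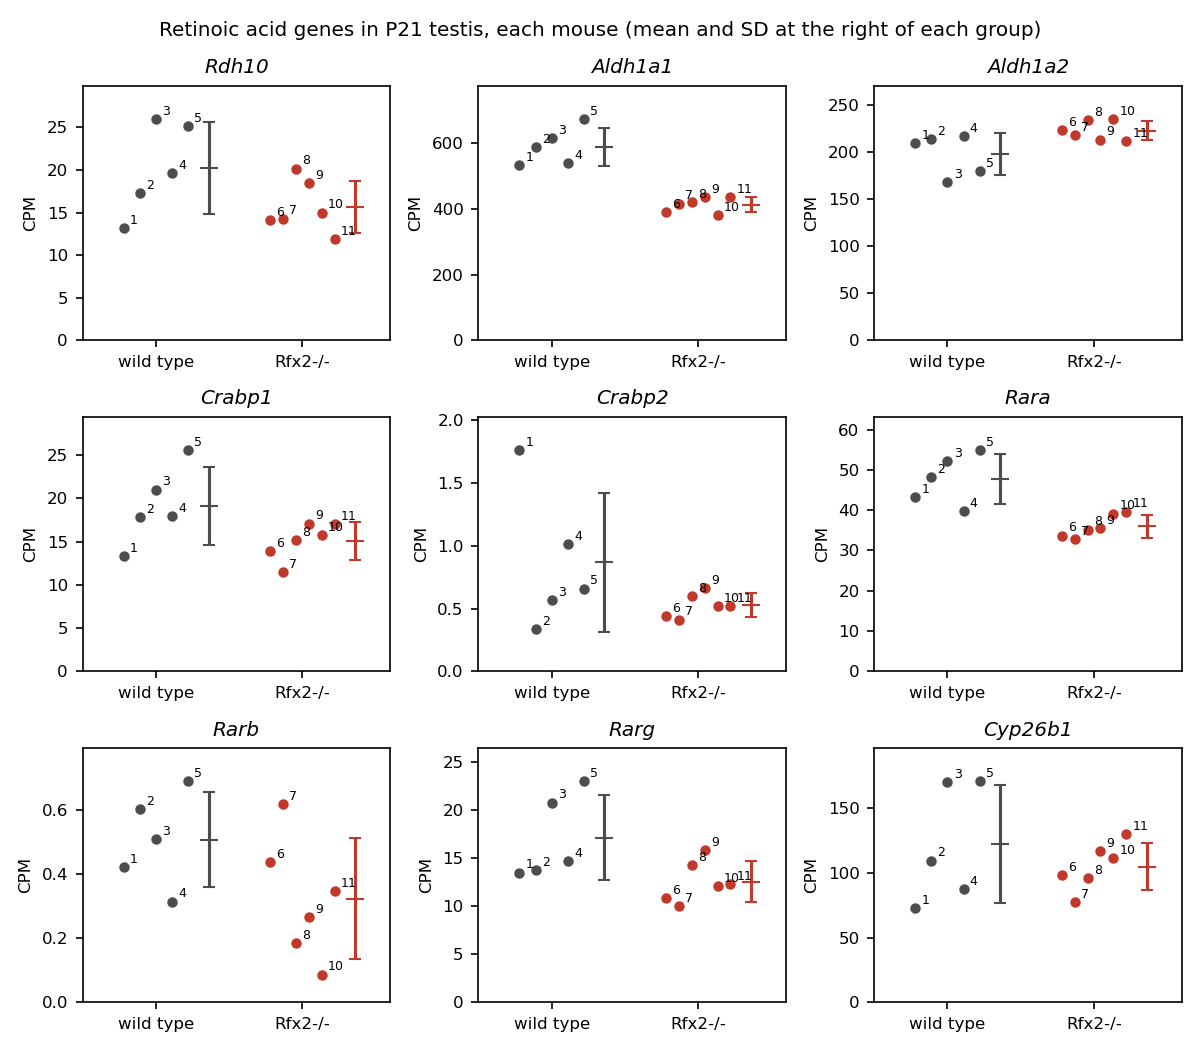
CPM of the 9 genes in each mouse (points, numbered by replicate, wild type dark and Rfx2-/- red), with the mean and SD of each genotype at the right of its points; all axes start at 0. The Aldh1a1 points separate most clearly, from 534 to 673 CPM in wild type and from 381 to 437 CPM in Rfx2-/- testis, and wild type replicates 3 and 5 are the highest mice for Rdh10, Aldh1a1, Crabp1, Rara, Rarg and Cyp26b1.

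Among the cellular binding proteins, which carry retinoic acid in the cytoplasm, Crabp1 (ENSMUSG00000032291, chromosome 9, from 54764748 to 54773110, plus strand) was by far the more abundant. Wild type replicates 1 to 5 had 13.3, 17.8, 21.0, 17.9 and 25.6 CPM of it, against 11.4 to 17.1 CPM, with a median of 15.5, in Rfx2-/- mice. All wild type mice but replicate 1 lay above the Rfx2-/- range, and the difference did not pass the test (log2 fold change -0.34, SE 0.16, edgeR adjusted p = 0.129). Crabp2 (ENSMUSG00000004885, chromosome 3, from 87948666 to 87953376, plus strand), known for delivering retinoic acid to receptors in the nucleus, was counted with only 10 to 50 reads per mouse. Wild type replicates 1 to 5 had 1.76, 0.336, 0.568, 1.02 and 0.660 CPM, and Rfx2-/- mice had 0.413 to 0.667 CPM with a median of 0.522. Its fitted log2 fold change of -0.71 was the lowest of the 9 genes, but replicate 1 alone carried much of the wild type mean (SE 0.37, edgeR adjusted p = 0.160), and without that mouse the value was -0.29.

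The retinoic acid receptors are ligand-activated transcription factors. Rara (ENSMUSG00000037992, chromosome 11, from 98927818 to 98974942, plus strand), the receptor known to be needed in Sertoli cells, had levels of 43.3, 48.1, 52.2, 39.8 and 54.9 CPM over wild type replicates 1 to 5. Rfx2-/- mice had 32.8 to 39.7 CPM with a median of 35.4, so the genotypes were separate, although the highest Rfx2-/- mouse came within 1 CPM of wild type replicate 4. The means were 47.7 ± 6.19 CPM (SD, n = 5) and 36.03 ± 2.81 CPM (SD, n = 6), and the fitted level was 75.6% of wild type (log2 fold change -0.40, SE 0.09). With an edgeR adjusted p of 0.0218 it missed the threshold of 0.01, and it passed 0.05, as 14.9% of tested genes did, 8.78% with lower values. The Wald test of DESeq2 called it at 0.01, as it called 2057 of the 15745 tested genes. Without wild type replicates 3 and 5 the log2 fold change of Rara was -0.27 (edgeR adjusted p = 0.0814).

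Rarg (ENSMUSG00000001288, chromosome 15, from 102234938 to 102257517, minus strand), known from spermatogonia that are about to differentiate, had levels of 13.5, 13.8, 20.8, 14.7 and 23.0 CPM over wild type replicates 1 to 5 and 10.03 to 15.9 CPM, with a median of 12.2, in Rfx2-/- mice. Only wild type replicates 3 and 5 stood above the range of Rfx2-/- mice. The log2 fold change was -0.45 (SE 0.17, edgeR adjusted p = 0.0849), and -0.14 without those mice.

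Rarb (ENSMUSG00000017491, chromosome 14, from 16430839 to 16819156, minus strand) is a receptor gene and is itself a classical target of retinoic acid. It was close to the floor, with 2 to 22 reads per mouse. Wild type replicates 1 to 5 had 0.423, 0.605, 0.511, 0.315 and 0.692 CPM, and Rfx2-/- mice had 0.0869 to 0.619 CPM with a median of 0.308, where 3 counts in a library, a floor that covers counting error only, are worth 0.0852 to 0.139 CPM. The genotypes overlapped over most of their range (log2 fold change -0.64, SE 0.40, edgeR adjusted p = 0.233), and the difference did not pass the test. Of the 3940 nt of merged Rarb exons, 1793 nt overlap exons of Top2b on the other strand. The authors left out reads on exons of different genes, so the level of Rarb per kb is understated.

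Receptors bind DNA at direct repeats of a hexamer. Promoter windows from RefSeq on GRCm38.p6, from 250 bases before to 50 bases after a transcription start, were found for 7 of the 9 genes (12 windows, none for Crabp2 and Rdh10) and for 27 of 37 further retinoid genes. They were searched on both strands for 2 copies, in the same orientation, of the hexamer AGGTCA, of the forms AGTTCA and also GGTTCA that stand in Rarb, or of the further form GGGTCA. Copies 5 bases apart, the spacing of the classical element, were found in 32 of all 32817 windows (0.0975%). Among the windows of the 9 genes this repeat was found in Rarb, and among the further genes in Cyp26a1, another CYP26 enzyme. The match in Rarb was set in advance by the forms searched, and both copies in Cyp26a1 are AGTTCA, so neither match is an independent find. The sequences are shown because both genes are textbook retinoic acid targets and both had low counts in these testes, with the repeat in capitals, 5′ to 3′ on the strand of the gene.
Rarb, chr14:16575507-16575535, minus strand, repeat from base -53 to -37: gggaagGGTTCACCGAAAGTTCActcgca
Cyp26a1, chr19:37697770-37697798, plus strand, repeat from base -32 to -16: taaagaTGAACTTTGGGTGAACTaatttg
In Rarb the repeat reads in the direction of the gene, and the start at this window lies inside the gene as annotated. In Cyp26a1 it reads on the opposite strand. Repeats 2 bases apart occurred in 0.268% and a match to a fixed form of the X-box, the motif of RFX proteins, in 0.692% of all windows. These letters were not in the windows of the 9 genes or of the further genes. Other forms and spacings of the X-box were not searched, and the windows are shorter than the promoters searched in the paper. The RFX2 ChIP-Seq of the paper was not used here, so whether RFX2 binds these genes was not tested.

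Cyp26b1 (ENSMUSG00000063415, chromosome 6, from 84571414 to 84593908, minus strand) encodes the enzyme that clears retinoic acid and protects germ cells of the fetal testis from it. Wild type replicates 1 to 5 had 73.0, 109, 169.6, 87.5 and 170.4 CPM, the widest spread of the 9 genes apart from Crabp2 when set against the mean. Rfx2-/- mice, from 77.1 to 129 CPM with a median of 105, lay mostly between the low and the high wild type mice. The log2 fold change was -0.22 (SE 0.23, edgeR adjusted p = 0.464), and its direction depended on wild type replicates 3 and 5, without which it was 0.23.

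Wild type mice had the wider spread for most of these genes, a difference that was not tested. The coefficient of variation was larger in wild type for 8 of the 9 genes, Rarb being the exception, and its median over all tested genes was 19.7% in wild type and 10.95% in Rfx2-/- mice. Wild type replicates 3 and 5 were the highest of all 11 mice for 6 of the 9 genes (Rdh10, Aldh1a1, Crabp1, Rara, Rarg and Cyp26b1), against 26.9% of tested genes. The same mice had the highest Sertoli marker scores, 7.32 and 7.42 on the log2 CPM scale, above 6.82 to 7.13 for the rest of their group and 6.69 to 6.91 in Rfx2-/- mice. With the Sertoli score as a covariate, the log2 fold change was -0.35 for Aldh1a1 (edgeR adjusted p = 0.0107) and -0.19 for Rara (adjusted p = 0.233), while Cyp26b1 was called higher (log2 fold change 0.56, adjusted p = 0.00978). The direction also turned for Rdh10, Crabp1 and Rarg. The score itself differed between the genotypes, so this fit cannot tell the genotype and the score apart where they move together.

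**Figure D3:**
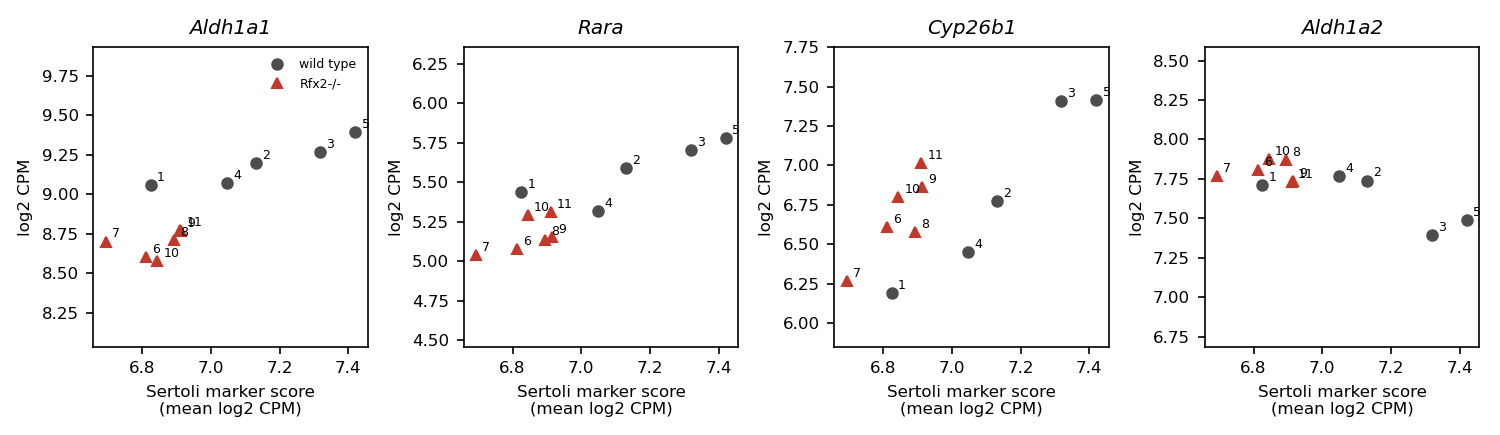
Log2 CPM of Aldh1a1, Rara, Cyp26b1 and Aldh1a2 (y axis) against the Sertoli marker score, the mean log2 CPM of 10 markers (x axis), with 1 numbered point per mouse (wild type circles, Rfx2-/- triangles). Wild type replicates 3 and 5, at scores of 7.32 and 7.42, are high for Aldh1a1, Rara and Cyp26b1 and low for Aldh1a2, and at scores near 6.8 the Rfx2-/- mice lie below wild type replicate 1 for Aldh1a1.

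After removal of the genotype means, the log2 CPM of the 9 genes over the 11 mice were compared in pairs. These values are descriptions over 11 mice, in each of which both genes come from the same library and mix of cells. Crabp1 and Cyp26b1 moved most alike (Pearson r = 0.915), Rara and Cyp26b1 had r = 0.883, and Crabp1 and Rarg had r = 0.843. Aldh1a2 went the other way, with r = -0.757 to Cyp26b1 and r = -0.743 to Aldh1a1. Among all tested genes, those most like Aldh1a1 were Smim26 (r = 0.974), Hes6 (0.970), Rnh1 (0.966), Slc35a4 (0.964) and Ctsz (0.944). Those most like Aldh1a2 were Fam129c (r = 0.972), Dctn4 (0.971), Fam20b (0.970), Id4 (0.969) and Sap30 (0.968). For Crabp2, the gene with the lowest fold change, they were Perp (r = 0.944), Pllp (0.898), Spint3 (0.896), Plin5 (0.890) and Blnk (0.872). Crabp2 had few reads and varied mostly among wild type mice, from 0.336 CPM to 1.76 CPM in replicate 1, so its r values lean on few mice. Of the 15745 tested genes, 938 had r over 0.9 to Rarg and 706 to Crabp1, but 72 to Aldh1a1 and 51 to Rara.

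The other genes of the pathway were taken from 5 lists of 37 genes in all, of which 31 were tested. Of these edgeR called 0, against 2.67% of all tested genes. The Wald test of DESeq2 called 4 of the 31, and 2057 of all 15745 tested genes. At an unadjusted p of at most 0.05, 13 of the 31 were lower and 4 higher, where 23.7% and 18.1% of all tested genes were, and their median log2 fold change was -0.27. Rbp2, Ttr, Dhrs9, Aldh8a1, Cyp26c1 and Rxrg did not pass the filter on low counts.

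In retinol transport, binding and storage, 4 of 7 tested genes had log2 fold changes below 0. Stra6, the receptor for retinol uptake, had the lowest, -0.74 (SE 0.25, edgeR adjusted p = 0.0601), with 27.4 ± 11.5 CPM in wild type (SD, n = 5) and 16.5 ± 2.70 CPM in Rfx2-/- testis (SD, n = 6). For Stra6, wild type replicates 3 and 5 had 37.5 and 41.6 CPM, above the rest of their group at 15.9 to 23.3. Without replicates 3 and 5 the log2 fold change of Stra6 was -0.22 (edgeR adjusted p = 0.444). Bco1, which cleaves beta-carotene, had the highest value, 1.51 (SE 0.88, adjusted p = 0.204), and its levels ran from 0.346 to 3.35 CPM in wild type and from 0.400 to 9.45 CPM in Rfx2-/- mice. Single mice moved it, to 2.54 without wild type replicate 1 (edgeR adjusted p = 0.0421) and to 0.76 without Rfx2-/- replicate 7 (adjusted p = 0.495).

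In retinol and retinaldehyde metabolism, 4 of 9 tested genes had values below 0. Dhrs3, which turns retinaldehyde back into retinol, had the lowest log2 fold change, -0.53 (SE 0.18, edgeR adjusted p = 0.0605), and Adh7, an alcohol dehydrogenase, the highest, 1.06 (SE 0.67, adjusted p = 0.235). They were -0.39 and 0.46 without wild type replicates 3 and 5 (edgeR adjusted p = 0.280 and 0.685). At a looser adjusted p of 0.05, Adh4 was higher (log2 fold change 0.63, edgeR adjusted p = 0.0318), with 7.23 to 12.05 CPM in wild type and 12.9 to 17.8 CPM in Rfx2-/- mice, and Adh5 was lower (-0.33, adjusted p = 0.0238). The lowest mice for Adh4 were wild type replicates 3 and 5, at 7.27 and 7.23 CPM, and the other wild type mice had 10.06 to 12.05 CPM. Of the remaining retinoic acid binding and degradation genes, Cyp26a1, which carries the repeat shown above, had 4.58 ± 2.25 CPM in wild type (SD, n = 5) and 2.96 ± 1.09 CPM in Rfx2-/- testis (SD, n = 6; log2 fold change -0.63, SE 0.36, edgeR adjusted p = 0.195). Fabp5, a fatty acid binding protein that also binds retinoic acid, had a value of -0.16 (adjusted p = 0.277). Without wild type replicates 3 and 5 the log2 fold change of Cyp26a1 was -0.065 (edgeR adjusted p = 0.939).

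Among retinoid X receptors and cofactors, 6 of 8 tested genes had values below 0. Rxra had the lowest, with 34.0 ± 7.31 CPM in wild type (SD, n = 5) and 23.8 ± 2.94 CPM in Rfx2-/- testis (SD, n = 6; log2 fold change -0.51, SE 0.14, edgeR adjusted p = 0.0372). Its highest mice were wild type replicates 3 and 5, with 39.9 and 43.4 CPM. Without them the log2 fold change of Rxra was -0.27 (edgeR adjusted p = 0.175). Per kb, Rxrb was the most abundant of the retinoid X receptors, at 27.4 ± 2.41 CPM per kb (SD, n = 5) in wild type and 26.4 ± 2.29 (SD, n = 6) in Rfx2-/- testis, more than Rara in every mouse. The coactivator Ncoa2 had 204 to 239.8 CPM in wild type and 174 to 194 CPM in Rfx2-/- mice, without overlap (log2 fold change -0.27, SE 0.06, edgeR adjusted p = 0.0168). The corepressor Ncor1 had the highest value of the list, 0.10 (adjusted p = 0.221).

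In the list of germ cell genes that respond to retinoic acid, 4 of 5 had values below 0. For Stra8, the gene of meiotic entry, wild type replicates 1 to 5 had 35.7, 46.1, 89.3, 53.8 and 105 CPM, and Rfx2-/- mice had 32.4 to 54.6 CPM. Its high mice were again wild type replicates 3 and 5 (log2 fold change -0.67, SE 0.27, edgeR adjusted p = 0.0930). Without them the log2 fold change of Stra8 was -0.12 (edgeR adjusted p = 0.784). Gm4969, which encodes the partner of STRA8 known as meiosin, and Kit, the receptor of differentiating spermatogonia, had log2 fold changes of -0.64 and -0.45 (edgeR adjusted p = 0.0880 and 0.0723). Wild type replicates 3 and 5 were the highest mice here too, with 93.3 and 80.7 CPM of Gm4969 and 77.2 and 78.2 CPM of Kit. The other wild type mice had 33.9 to 48.7 and 44.4 to 50.5 CPM. Rfx2-/- mice had 29.4 to 47.9 and 38.1 to 52.8 CPM. Rec8, a meiotic cohesin, had the highest value of the list, 0.18 (SE 0.34, adjusted p = 0.700), and its genotypes overlapped.

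**Figure D4:**
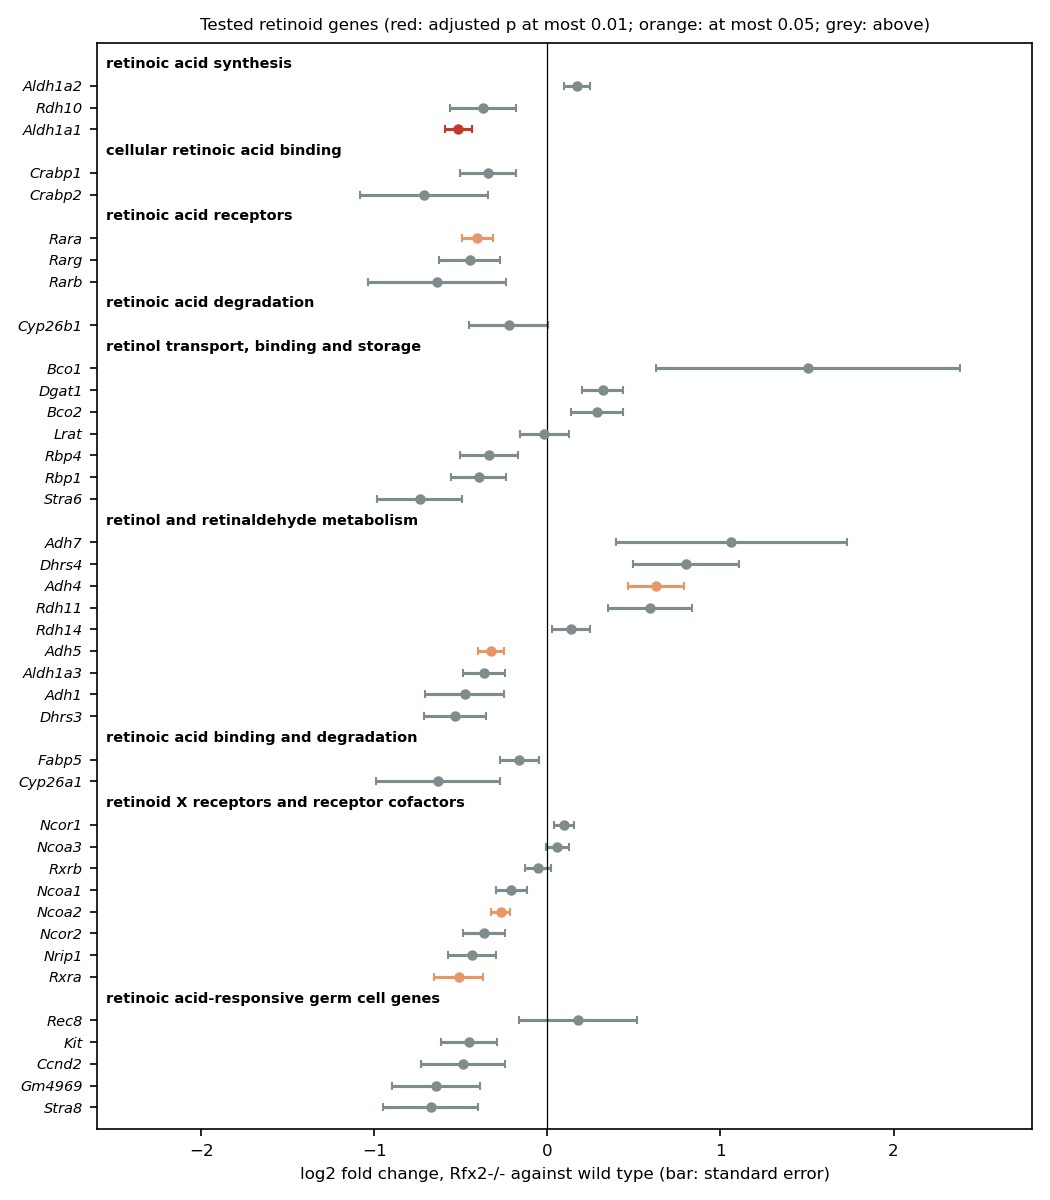
Log2 fold change of Rfx2-/- against wild type testis with its SE (x axis) for the 9 genes and the 31 tested genes of the further lists, grouped by role; red marks an adjusted p of at most 0.01, orange at most 0.05 and grey the rest. Only Aldh1a1, at -0.51, is red, and Rara, Rxra, Ncoa2, Adh5 and Adh4 are orange.

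Markers of other cell types were set beside these values, and their part in them was not tested beyond the fits with the Sertoli or round spermatid score as a covariate. Of 6 Leydig cell markers, Hsd3b1, an enzyme of steroid synthesis, was called lower, with 91.2 ± 14.4 CPM in wild type (SD, n = 5) against 50.2 ± 6.23 CPM (SD, n = 6; log2 fold change -0.86, edgeR adjusted p = 0.00126). Lhcgr narrowly missed the call (log2 fold change -1.12, edgeR adjusted p = 0.0102), and its genotypes did not overlap. It had 6.64 ± 2.21 CPM in wild type (SD, n = 5) and 3.05 ± 0.495 CPM in Rfx2-/- testis (SD, n = 6). Of the 6 markers, 5 had log2 fold changes below 0, while Cyp17a1 had 0.09 (edgeR adjusted p = 0.937). The summed CPM of the list ran from 131 to 319 in wild type and from 76.1 to 282 in Rfx2-/- mice. No marker was called by edgeR in the other 10 lists. For the difference in mean log2 CPM of a list between the genotypes, two-sided exact permutation p-values were 0.190 for Leydig cells, 0.610 for peritubular myoid cells, 0.0693 for macrophages, 0.104 for endothelial cells, 0.139 for undifferentiated and 0.165 for differentiating spermatogonia, 0.177 for round spermatids, 0.654 for elongating spermatids and 0.766 for red blood cells. Every list but those of myoid cells, pachytene spermatocytes, round and elongating spermatids and red blood cells had a lower mean in Rfx2-/- testis. The elongating spermatid list had a higher mean but a median log2 fold change of -0.50, and for myoid cells the median was -0.01. No marker on these lists was at 3 counts or fewer in every mouse. In single mice, however, some spermatid markers fell to 3 counts or fewer, and to 0 in wild type replicate 5. The prior count of 2 thus sets part of the round and elongating spermatid scores in such mice. Summed CPM of round spermatid markers were 58.5 and 42.4 in wild type replicates 3 and 5, and ran from 124 to 483 in the rest of that group and from 156 to 775 in Rfx2-/- mice.

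Over 23 other settings, which changed the scaling, filter, test, threshold or covariate or left out mice, Aldh1a1 stayed lower in the mutant, its log2 fold change lying between -0.69 and -0.35, and it was no longer called in 3. Rara also stayed lower, from -0.58 to -0.19, and was called in 3, by DESeq2 and under the looser thresholds. Aldh1a2 stayed above 0, from 0.02 to 0.21, without a call. Cyp26b1 ranged from -0.42 to 0.56, the only one of the 9 genes whose direction turned when mice were left out.

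**Figure D5:**
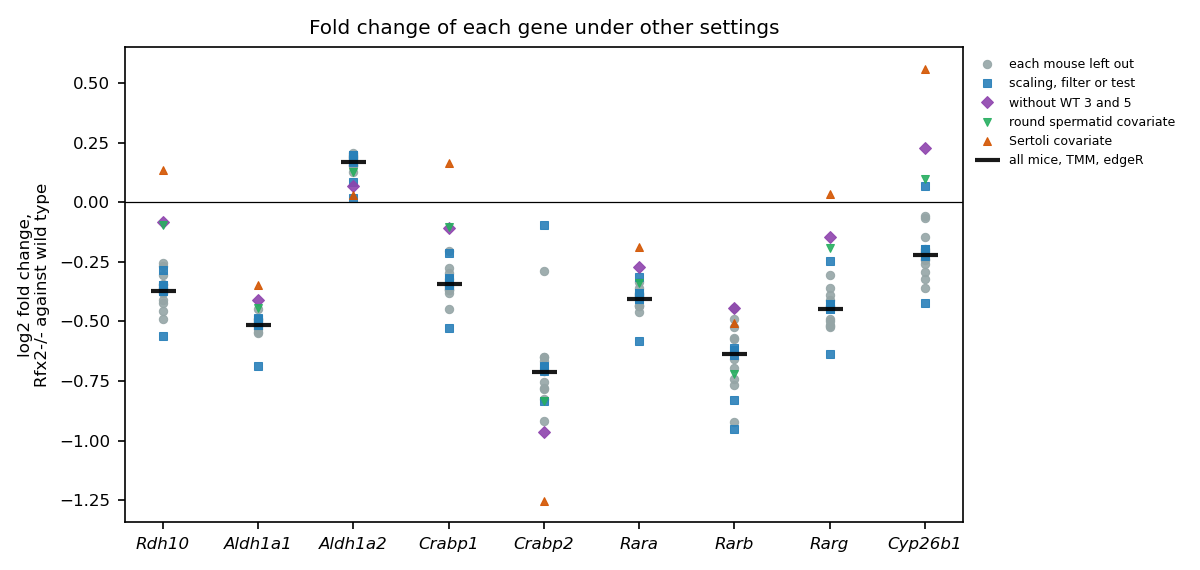
Log2 fold change of Rfx2-/- against wild type testis (y axis) for each of the 9 genes: the bar is the value from all mice with TMM scaling and edgeR, and points are other settings (each mouse left out, other scaling, filter or test, without wild type replicates 3 and 5, and the round spermatid or Sertoli score as a covariate). All Aldh1a1 points lie between -0.69 and -0.35, while those of Cyp26b1 cross 0.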

How the data were processed

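Total RNA from testes of 5 wild type and 6 Rfx2-/- mice at P21 was sequenced from TruSeq libraries. The deposited values are raw read counts of 23074 genes per mouse, made by the authors without normalization. Their processing notes name CASAVA 1.8.2, STAR 2.4, featureCounts 1.4.6 and GRCm38. The authors discarded reads with more than 1 position, counted reads on merged exons of protein coding isoforms, and left out reads on exons of different genes. Their supplement describes the mapping differently in different paragraphs. No strand setting was given in the sources used here, so reads from overlapping genes on opposite strands cannot be told apart. Every column of the table was used.

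The tests were run with edgeR 4.0.16 under R 4.3.3. Low genes were removed by filterByExpr, libraries were scaled by TMM (factors 0.894 to 1.18), and the genotypes entered glmQLFit and glmQLFTest as the only term, with Benjamini-Hochberg adjustment over all 15745 tested genes. The authors used DESeq with a limit of 0.01, which was applied here to adjusted p. Whether mice were processed in batches is not given in the sources used here. Symbols came from GENCODE M21, which matched 22293 of the 23074 identifiers. Levels per kb used merged exons of protein coding transcripts. Marker scores are mean log2 CPM with a prior count of 2, compared by two-sided exact permutation tests over the 11 mice. The 5 pathway lists, 11 marker lists and 9 genes were chosen with earlier results of these data known. Named genes are the 9, called pathway genes, the highest and lowest fold change of each pathway list, the 5 genes most alike to Aldh1a1, Aldh1a2 and those of the 9 with the highest and lowest fold change, and Rfx2. Others (Adh4, Adh5, Ncoa2, Gm4969, Kit, Rxrb, Inha, Wt1, Hsd3b1, Lhcgr, Cyp17a1, Aldh1a7 and Top2b) were named after their values were seen. Alternatives were DESeq2's size factors, total counts, DESeq2 1.42.0, limma 3.58.1 voom, a robust prior, no filter, a mean count of at least 50, other thresholds, marker score covariates, longest transcripts, and each mouse left out. The fits were tested on simulated counts. Python 3.11.15, pandas 2.3.3 and matplotlib 3.10.9 drew the figures, and permutation tests with SciPy 1.17.1.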

Additional observations from a re-analysis of the deposited data

Results flagged for a closer look

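Wild type replicate 1 had 3.35 CPM of Bco1, the beta-carotene cleaving enzyme, against 0.346 to 0.740 CPM in the other wild type mice. The gap to the nearest of them is 0.869 of the range of the group, beyond the limit for a single mouse far from the others. It was the only such value in 38 groups of values examined, of which chance flags about 1 in 20. Without this mouse the log2 fold change of Bco1 was 2.54, against 1.51 with all mice. The same mouse had the highest round spermatid score of the wild type mice, 5.65 against -0.71 to 4.06 in the others. With that score as a covariate the log2 fold change of Bco1 was 0.21 (edgeR adjusted p = 0.752). The cause of the high value was not tested.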

How the results depend on the processing

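By edgeR, 1 of the 9 genes and 0 of the further retinoid genes were called. Of the 9, 2 genes (Aldh1a1 and Rara) were called by the Wald test of DESeq2, with a limit of 0.05 on the adjusted p and with 0.01 on the unadjusted p, and 0 to 1 with single mice left out, 0 without Rfx2-/- replicate 6 or 10. With the Sertoli score as a covariate 1 was called, Cyp26b1 in place of Aldh1a1. Further retinoid genes numbered 1 with total counts as library sizes, 4 with DESeq2, 4 at an adjusted p of at most 0.05, 5 at an unadjusted p of at most 0.01, 1 with the round spermatid covariate, and 0 to 1 with single mice left out. Of the 15745 genes tested with all mice, 420 were called, 305 of them lower. This became 2057 with DESeq2 (911 lower and 1146 higher), 1049 with voom, 2350 at an adjusted p of at most 0.05 (1382 lower), 2784 at an unadjusted p of at most 0.01, 892 with the round spermatid covariate, 691 with the Sertoli covariate (629 lower), and 229 to 585 with single mice left out. With the Sertoli covariate the log2 fold change turned to 0.14 for Rdh10, 0.16 for Crabp1, 0.036 for Rarg, 0.56 for Cyp26b1, 0.11 for Stra6, -0.57 for Bco1, -0.53 for Adh7, 0.47 for Cyp26a1, 0.20 for Stra8 and -0.41 for Rec8. With the round spermatid covariate it turned to 0.10 for Cyp26b1, 0.0062 for Cyp26a1 and -0.30 for Rec8. Cyp26b1 turned to 0.068 with voom and, chosen after seeing the data, to 0.23 without wild type replicates 3 and 5. With total counts Ncor1 turned to -0.069 and Rec8 to -0.0077, as the median of all tested genes moved from -0.05 to -0.22, and with single mice left out Rec8 ranged from -0.12 (without Rfx2-/- replicate 7) to 0.37. The cause was not tested. With the longest transcript as length, the wild type level was 14.1 CPM per kb for Rara and 5.82 for Rarg. Rarb and Crabp2, with at most 50 reads in a mouse, had too few counts to be tested at a mean count of 50, and DESeq2 gave no adjusted p for Rarb. No paired analysis was possible because wild type mice are numbered 1 to 5 and Rfx2-/- mice 6 to 11, so no number is shared. The paper states that littermates of the same age were used where possible. The litter of each mouse is not given in the sources used here, so shared litters could not be taken into account.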
